A study of Mus musculus with 44 samples.

Results

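Sorted muscle macrophages (MFs) that lack Pparg in the myeloid lineage were compared between day 4 and day 2 after injury, using every array labelled knockout (KO), Ly6C+ F4/80low and non-treated at those days. There were 4 arrays at day 4 and 5 at day 2, 9 of the 44 arrays of the series, and 19938 genes were measured on each. The KO mice were C57B6/J animals with floxed Pparg alleles (PPARg fl/fl) and Cre recombinase (LysM Cre+), which is driven from Lyz2, the gene of myeloid lysozyme, so deletion was limited to cells that had switched on that gene. Injury was made by cardiotoxin (CTX), a snake toxin that kills muscle fibres, in the tibialis anterior muscle. CD45+ leukocytes were enriched on magnetic beads and sorted by their surface Ly6C, which inflammatory monocytes carry, and by F4/80, the product of Adgre1 and a general mark of MFs. The labels name no other gate. A later paper that used this series names, for its own muscle MFs, an antibody to Ly6G. Ly6G is a surface marker of neutrophils, by which these can be gated out. Of earlier microarrays of such cells that paper says that CX3CR1, the fractalkine receptor, stood in for F4/80, which the labels here name. Further groups read beside these were KO Ly6C+ F4/80low MFs at day 1 (n = 4), KO Ly6C- F4/80high MFs at day 2 (n = 5), and wild-type (WT, C57B6/J) Ly6C+ F4/80low MFs at day 2 (n = 6) and day 4 (n = 4), none of them drug treated. The labels call the arrays biological replicates but give no animal, pool, batch or scan date, so p-values measure the spread between arrays, part of which may be technical.

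PPARγ, the protein of Pparg, is a nuclear receptor that binds fatty acids and, paired with RXR, switches on genes of lipid uptake and storage. After sterile muscle injury, blood monocytes that carry Ly6C enter the tissue, secrete inflammatory cytokines and clear debris, and then turn into MFs with little Ly6C and much F4/80 that secrete growth factors for the regenerating fibres. Some tissue MFs also divide locally, a step that needs the enzymes of DNA replication and the proteins of the mitotic spindle.

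Levels are log2 array intensities, on which a difference of 1 is a 2-fold change, and every difference is day 4 minus day 2 unless another pair is named. A gene was called at a Benjamini-Hochberg adjusted p below 0.05 in limma over all 19938 genes, and adjusted p always means that value. "Rose" and "fell" are used only of called genes. A level belongs to its own probe set, so levels of different genes were not compared. Since each array measures a cell population, fewer cells of a type and less RNA per cell cannot be told apart.

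In their RNA the day 4 arrays went against their Ly6C+ F4/80low label. That label records a sort on surface protein, which arrays do not measure. Ly6c1 and Ly6c2, the genes of the Ly6C antigen, had no probe set of their own and were read from a pair of shared probe sets. The first of these (10429568) read 12.04, 12.06, 11.83, 12.05 and 12.08 in the KO day 2 Ly6C+ arrays and 9.95, 10.78, 9.36 and 9.21 in the KO day 4 arrays. In the KO day 2 Ly6C- arrays it read 9.43, 9.55, 8.94, 9.55 and 8.87. Every day 4 array thus lay below every day 2 Ly6C+ array, and replicates 3 and 4 lay inside the range of the Ly6C- arrays. The day 4 minus day 2 difference was -2.19 (exact permutation test, two-sided, p = 0.0159, the smallest that 4 against 5 arrays allow), and the difference from the Ly6C- arrays was 0.56 (exact permutation p = 0.159). The other shared probe set (10429573) differed by -2.08 (exact permutation p = 0.0159) and from Ly6C- by 0.51 (exact permutation p = 0.175). WT arrays with the same pair of labels showed the same step on the first probe set, from 11.91 ± 0.15 (SD, n = 6) at day 2 to 9.88 ± 0.25 (SD, n = 4) at day 4.

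Over all genes the day 4 arrays also lay with the other sorted subset on the axis between the day 2 subsets. On a line from the mean of the KO day 2 Ly6C+ arrays (0) to the mean of the KO day 2 Ly6C- arrays (1), the day 4 arrays fell at 1.08, 0.91, 0.92 and 1.04, within or just beyond the Ly6C- arrays at 0.87 to 1.04. KO day 1 arrays lay on the far side, from -0.34 to -0.22. A position on this line leaves out differences off it, and 4950 genes (24.8%) were called between the day 4 and the KO day 2 Ly6C- arrays. Of the genes fixed as general monocyte and MF markers, Adgre1 read 11.58, 11.64, 11.55, 11.51 and 11.38 at day 2 and 12.27, 12.37, 12.16 and 12.30 at day 4, a rise of 0.74 ± 0.07 (SE) with adjusted p = 2.6e-12. Csf1r, the receptor for the MF growth factor CSF1, rose by 0.53 and Mertk, a receptor for dying cells, by 1.95, and the endosomal protein gene Cd68 rose by 0.13. Ccr2, the chemokine receptor of inflammatory monocytes, differed by -1.48 and Itgam, the integrin CD11b, by -0.69, both called, and Fcgr1, a high-affinity antibody receptor, by -0.16 (adjusted p = 0.21). Sort subset and day therefore cannot be told apart in this comparison, and the day 4 cells are called below by their label alone.

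**Figure D1:**
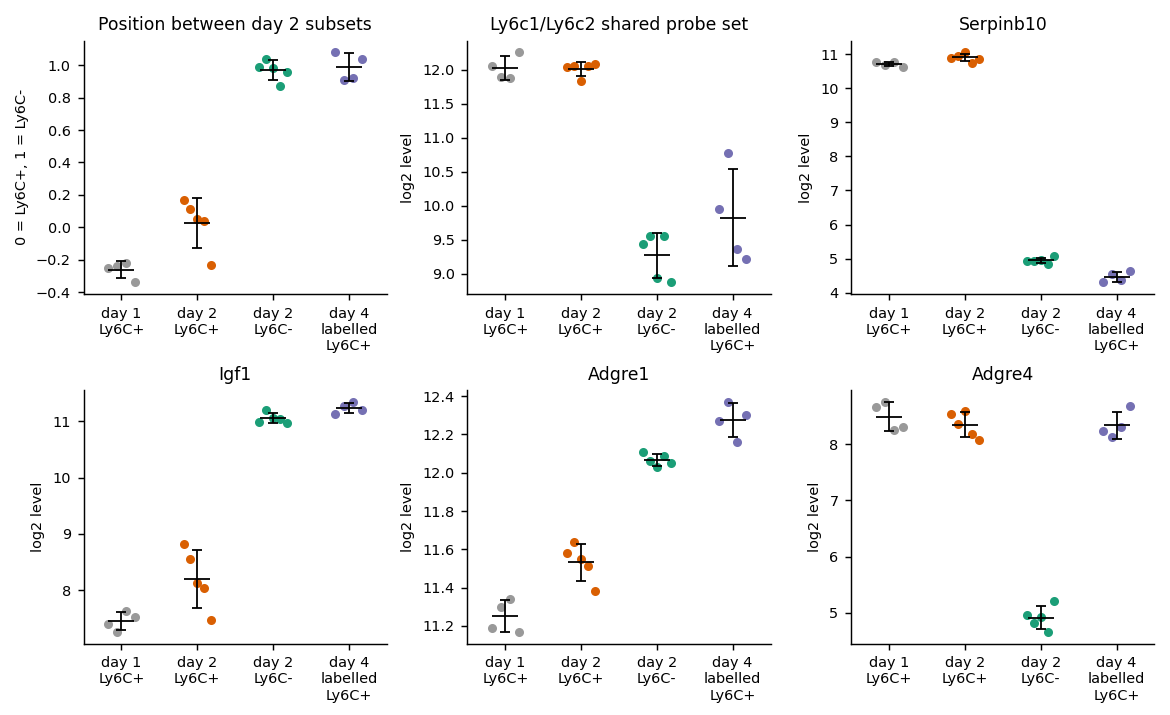
Each panel shows the KO arrays as points with their group mean and SD as a bar, for day 1 Ly6C+, day 2 Ly6C+, day 2 Ly6C- and day 4 labelled Ly6C+; the vertical axes are the position between the day 2 subsets (no unit) and log2 intensity of the shared Ly6c1 and Ly6c2 probe set, Serpinb10, Igf1, Adgre1 and Adgre4. In the position, Serpinb10, Igf1 and Adgre1 panels the day 4 arrays sit nearer to the day 2 Ly6C- arrays than to the day 2 Ly6C+ arrays, as they do on the shared Ly6c probe set except for replicate 2 at 10.78, and in the Adgre4 panel they sit with the day 2 Ly6C+ arrays, at 8.13 to 8.68 against 4.66 to 5.21 in Ly6C-.

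Within the groups, a pair of arrays stood apart from the rest. KO day 4 replicate 2 was the highest day 4 array on the shared Ly6c probe set and the lowest in cell division genes, and KO day 2 replicate 5, at -0.23 on the line, lay inside the day 1 range. Without KO day 4 replicate 2 there were 8587 calls, and without KO day 2 replicate 5 there were 7525, against 8937 with all arrays. Array medians ran from 6.7 to 6.75 in KO day 2 and from 6.64 to 6.68 in KO day 4, and correlations between arrays of a group ran from 0.987 to 0.994. No pair of the 44 arrays held identical values.

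Pparg itself was read at both days in the KO. Without a WT level beside it this does not check the deletion, and whether the probe set covers the floxed exons was not tested. Pparg read 10.49, 10.54, 10.25, 10.40 and 10.26 at day 2 and 10.15, 10.43, 10.15 and 10 at day 4. The groups overlapped, and the difference was -0.20 ± 0.14 (SE; adjusted p = 0.22). Lyz2, the locus that carries Cre, read 9.67, 9.53, 9.40, 9.68 and 9.18 at day 2 and 9.79, 9.07, 9.78 and 9.96 at day 4, with a difference of 0.16 ± 0.71 (adjusted p = 0.86). WT day 2 arrays 4 to 6 read 12.64 to 13.02 for this gene and WT day 2 arrays 1 to 3 read 8.67 to 8.99, the latter below every KO array of both days. The SE and adjusted p of Lyz2 rest on the spread within all 10 groups of the series, this split included. They do not measure the spread of the KO arrays alone. Whether those arrays bear a wrong genotype label was not tested. The overlap of calls with the WT and the genotype differences called are given with and without them. Other WT values include them.

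Between day 2 and day 4, 8937 of 19938 genes were called (44.8%), of which 4447 rose (22.3%) and 4490 fell (22.5%). The arrays of the 2 days did not overlap at all for 8119 genes, which is 40.7% of those tested. The median difference over all genes was -0.08. Among called genes, 794 rose and 444 fell by at least 1 on the log2 scale, and 114 rose and 101 fell by at least 2. With so large a share called, the count of a gene list was read against these percentages and its median against that of all genes.

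The 15 largest rises ran from 3.01 to 4.71. Dnase1l3, a secreted nuclease of MFs and dendritic cells that digests DNA in particles from dying cells, led them. It read 5.77, 5.88, 5.79, 5.59 and 6.02 at day 2 and 10.68, 10.05, 10.74 and 10.61 at day 4, a 26.1-fold rise (4.71 ± 0.11, SE; adjusted p = 7.9e-31). Nothing of this was seen in the KO Ly6C- arrays of day 2, whose mean was 5.44. These low levels lay below the array medians, RMA values carry no detection call, and so a fold against such a level is a lower bound if it is background. A filter on dim genes left out 3 of the 15 largest rises (Dnase1l3, Myl1 and Gpr34) and 1 of the 15 largest falls (Il6), whose values have no check under it. Cyclin genes stood among the leaders too, with Ccna2, the cyclin of S phase and G2, at 5.79, 5.96, 5.77, 5.85 and 5.92 at day 2 and 9.99, 8.83, 10.15 and 10.36 at day 4, a 15.7-fold rise (3.98 ± 0.18, adjusted p = 2.3e-21). Ccnb2, a cyclin of mitosis, rose by 3.22 ± 0.16 (adjusted p = 5.4e-20). In both cyclin genes replicate 2 was the lowest of the day 4 arrays and still far above the day 2 arrays.

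Igf1, the insulin-like growth factor that MFs supply to regenerating muscle, read 8.82, 8.56, 8.13, 8.04 and 7.48 at day 2 and 11.13, 11.27, 11.34 and 11.20 at day 4, an 8.15-fold rise (3.03 ± 0.18, adjusted p = 2.9e-17). The Ly6C- arrays of day 2 were at 10.97 to 11.19 and did not differ in the test (0.18, adjusted p = 0.61). Npl, an enzyme that breaks down sialic acid, rose by 3.86 ± 0.12 and Atp6v0d2, a subunit of the proton pump of lysosomes, by 3.49 ± 0.19, and Cd5l, a secreted scavenger receptor protein of MFs, rose by 3.17 ± 0.20. Against Ly6C- arrays, Atp6v0d2 (0.10, adjusted p = 0.82) and Cd5l (0.43, adjusted p = 0.13) were not called either, and Npl was higher by 0.66. These genes thus stood at day 4 close to where the other subset had been at day 2.

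Cxcl9, a chemokine induced by interferon γ, read 7.39, 7.25, 7.84, 7.30 and 7.04 at day 2 and 10.61, 10.62, 10.80 and 9.48 at day 4, an 8.07-fold rise (3.01 ± 0.28, adjusted p = 7.7e-12). Replicate 4 was lower than the other day 4 arrays but above all day 2 arrays. Cd72, a receptor of B cells and MFs that binds semaphorin CD100, rose by 3.08, the receptor gene Gpr34 by 3.11 ± 0.14 and Ccl8, a chemokine for monocytes, by 3.67 ± 0.32. The remaining leaders were Olfr111, an odorant receptor gene (3.86 ± 0.24), the histone gene H2bc4 (3.16 ± 0.25), Gbgt1, a glycolipid glycosyltransferase (3.08 ± 0.11), and Myl1, a myosin light chain of skeletal muscle. Myl1 read 5.74, 5.61, 6.10, 5.79 and 5.95 at day 2 and 8.86, 8.61, 9.24 and 9.15 at day 4 (3.13 ± 0.17, adjusted p = 5.1e-19). It is a gene of muscle fibres rather than of MFs, and the whole fibre list is given further on.

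The 15 largest falls ran from 3.33 to 6.45 in size and took in genes of the inflammatory monocyte. Serpinb10, a protease inhibitor of myeloid progenitors and monocytes, read 10.90, 10.95, 11.06, 10.75 and 10.87 at day 2 and 4.30, 4.55, 4.37 and 4.63 at day 4, an 87.1-fold fall (-6.45 ± 0.18, SE; adjusted p = 7.7e-29). Ly6a2, a member of the Ly6 surface protein family, fell 49.1-fold, from 11.18 or more in every day 2 array to 5.97 or less in every day 4 array. Vcan, the matrix proteoglycan versican, fell 41.3-fold (-5.37 ± 0.11, adjusted p = 9.7e-33). In the KO Ly6C- arrays of day 2 these genes were already low, with means of 4.94 for Serpinb10, 5.94 for Ly6a2 and 7.47 for Vcan.

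Trem1, a receptor that amplifies inflammatory signals, read 10.51, 10.84, 10.81, 10.82 and 11.04 at day 2 and 5.82, 6.41, 6.84 and 6.16 at day 4 (-4.50 ± 0.23). Il6, the cytokine interleukin-6, read 6.82, 6.84, 7.49, 6.89 and 7.76 at day 2 and 3.70, 3.63, 4.00 and 3.82 at day 4 (-3.37 ± 0.31, adjusted p = 6.2e-12). It had fallen between day 1 and day 2 as well, by 1.77 from a mean of 8.93. Falls were also seen in Cxcl3, a neutrophil chemokine (-4.05 ± 0.28), Acod1, the enzyme that makes itaconate (-3.33), and Clec4e, a receptor for damaged cells and mycobacterial lipid (-4.06 ± 0.38). The other falls of this size were in B3gnt5, a glycolipid enzyme, Ifitm6, Olr1, a receptor for oxidised lipoprotein, the clotting factor gene F10, the haemoglobin scavenger gene Hp, the co-stimulatory ligand gene Tnfsf9 and the nuclear receptor gene Nr4a3.

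Some of these falls were uneven between the day 4 arrays. Clec4e read 7.67 and 7.64 in replicates 1 and 2 and 9.08 and 8.86 in replicates 3 and 4, against 12.27 to 12.54 at day 2. Nr4a3 read 6.13, 6.42, 8.39 and 7.67 at day 4 (-3.41 ± 0.55, adjusted p = 2.2e-06), and Tnfsf9 7.35, 7.52, 9.03 and 8.84. The same pair of arrays was higher for Olr1, Il1b and the heat shock gene Hspa1a, whose day 4 values of 8.75, 8.77, 11.15 and 10.93 were in replicates 3 and 4 just below the day 2 range, which starts at 11.61. Over whole lists the mean level at KO day 4 was 8.65, 8.69, 9.17 and 8.97 for inflammatory cytokines and chemokines and 9.75, 9.72, 10.01 and 10.12 for heat shock and ER chaperone genes. The WT day 4 arrays showed the same split by number, at 8.40, 8.33, 9.0 and 8.96 and 9.73, 9.66, 10.20 and 10.17, and also for immediate early genes, at 9.31, 9.18, 9.86 and 9.78, where the KO arrays read 9.70, 9.71, 9.80 and 9.57. What set replicates 3 and 4 apart was not tested.

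**Figure D2:**
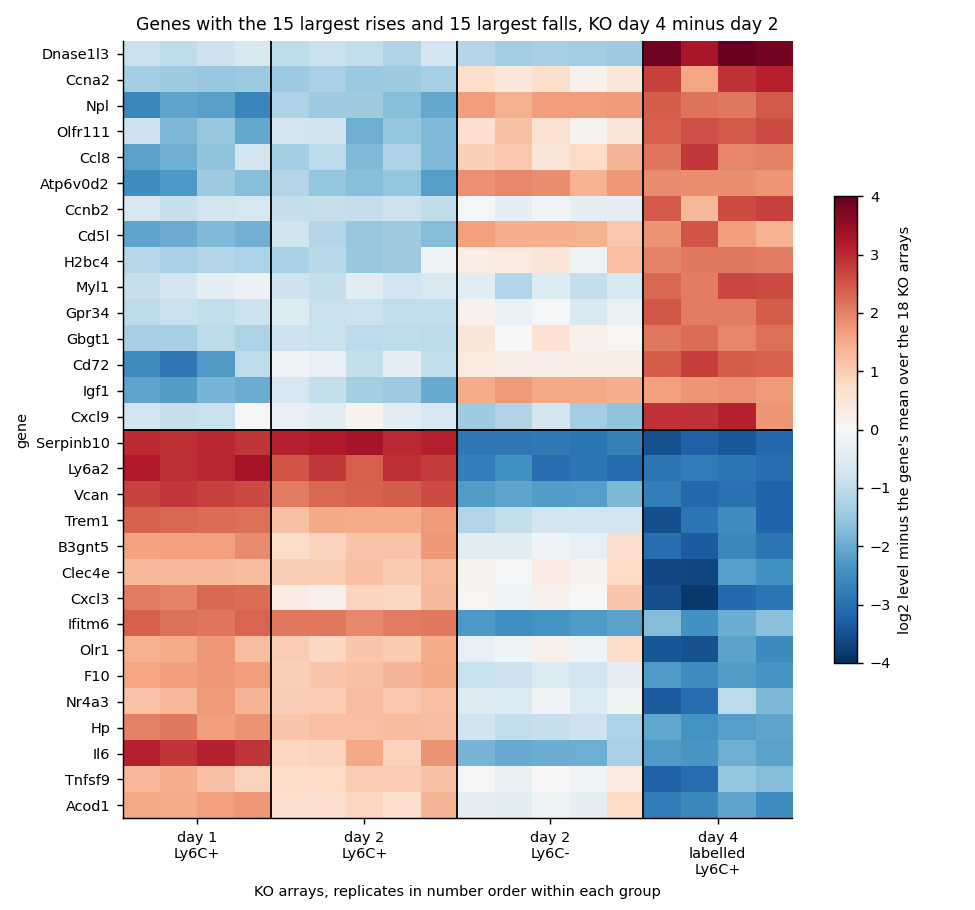
Heatmap of the 15 largest rises and 15 largest falls (rows) in the 18 KO arrays (columns, grouped as day 1 Ly6C+, day 2 Ly6C+, day 2 Ly6C- and day 4 labelled Ly6C+), with colour giving the log2 level minus the mean of the gene over those arrays. All 4 day 4 arrays lie on the other side from the day 2 Ly6C+ arrays, as the choice of genes requires, and the Ly6C- columns resemble day 4 for genes such as Igf1 and Serpinb10 but not for Dnase1l3, Cxcl9 or Cxcl3.

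To show where the day 4 arrays differed from the Ly6C- subset they resembled, they were compared with the KO day 2 Ly6C- arrays. That comparison shares the day 4 arrays with the main one, so values are set side by side. It called 4950 genes (24.8%), with 2607 higher (13.1%) and 2343 lower (11.8%) at day 4. With each array centred on its own median the split was 2076 higher and 2838 lower of 4914. Of the 15 largest rises, 12 were also higher at day 4 than in Ly6C- and 3 were not called, and of the 15 largest falls, 12 were also lower and 3 were not called.

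Dnase1l3 was 33.8-fold above the Ly6C- arrays, again against a dim level, and Cxcl9 15.3-fold. Adgre4, the gene of a F4/80-related adhesion receptor found on MFs and blood monocytes, read 4.66 to 5.21 in the Ly6C- arrays and 8.24, 8.13, 8.30 and 8.68 at day 4 (3.43 ± 0.15, adjusted p = 4.2e-21). Its day 2 Ly6C+ values of 8.54, 8.35, 8.59, 8.18 and 8.07 spanned most of the day 4 range, and the day 4 minus day 2 difference was smaller than its SE of 0.15 (adjusted p = 0.98). Adgre4 was thus a gene for which the day 4 arrays kept the level of their own label. Higher than Ly6C- by 2.78 to 3.26 were also the guanylate-binding protein gene Gbp4, the membrane channel gene Tmem176a, Myl1, Axl, a receptor for dying cells, and Tspan13. Axl read 9.17, 9.09, 8.71, 9.06 and 8.62 at day 2 and 10.97, 10.99, 10.66 and 10.90 at day 4 (1.95), above its Ly6C- mean of 8.0.

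The 8 genes furthest below the Ly6C- arrays were Cxcl3, Arg1, Clec4e, Olr1, Ppbp, B3gnt5, Arg2 and Vegfa. Arg1, the arginase that marks alternatively activated and hypoxic MFs, read 9.71, 9.50, 10.28, 9.75 and 9.72 at day 2 and 7.65, 7.02, 7.53 and 7.65 at day 4, and the Ly6C- mean was 10.75. It fell by 2.33 from the Ly6C+ arrays and differed from the Ly6C- arrays by -3.29. Vegfa, the growth factor of blood vessels, read 11.32, 11.28, 11.55, 11.45 and 11.92 at day 2 and 8.25, 8.57, 9.33 and 9.06 at day 4 (-2.70, and -2.45 from Ly6C-). Ppbp, a platelet and MF chemokine gene, differed by -2.91 from day 2 Ly6C+ and by -2.86 from Ly6C-. Arg1 and Vegfa were lower in every day 4 array than in any day 2 Ly6C+ array.

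Gene lists were then read by function, each by its measured members called up or down and its median. Among 13 measured genes of monocyte identity, 12 fell and 0 rose (median -1.75). Of 17 genes of MF maturation, 16 rose and 0 fell (median 1.01). Fcrls, an Fc receptor-like gene of tissue MFs, read 9.44, 9.18, 9.25, 9.22 and 8.20 at day 2 and 11.42, 11.24, 11.31 and 11.40 at day 4 (2.29 ± 0.18), and Folr2, a folate receptor of resident MFs, rose by 2.12 ± 0.14. Cx3cr1, the fractalkine receptor, read 9.82, 9.60, 9.65, 9.35 and 8.61 at day 2 and 11.48, 11.30, 11.07 and 11.30 at day 4 (1.88, adjusted p = 9.5e-11), and it also exceeded the Ly6C- arrays, by 1.99. For these genes day 2 replicate 5 was the lowest array and no day 2 array reached day 4.

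Among the 20 inflammatory cytokines and chemokines, 15 fell and 0 rose (median -1.66). Il1b, which encodes interleukin-1β, read 12.49, 12.46, 12.65, 12.59 and 12.69 at day 2 and 8.33, 9.13, 9.84 and 9.88 at day 4, a 9.71-fold fall (-3.28 ± 0.47, adjusted p = 2.2e-07). Chemokine and chemoattractant receptors fell in 5 of 7 cases and rose in 1, Cx3cr1 (median -0.71), with Ccr1, a receptor of inflammatory chemokines, at 10.63 to 10.77 at day 2 and 7.83 to 8.47 at day 4 (-2.60 ± 0.13). Toll-like receptors and their partners went both ways, with 7 of 12 up and 2 down (median 0.52). Tlr3, the sensor of double-stranded RNA, rose by 2.12 and Tlr8 by 1.40, whereas Cd14, the co-receptor for endotoxin, fell by 1.75 and Tlr2 by 1.37.

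Immediate early genes, which cells induce within minutes of a stimulus, fell in 18 of 20 cases with 0 rises (median -0.79), and heat shock and ER chaperone genes in 11 of 12 with 0 rises (median -0.65). The nuclear receptor genes Nr4a2 and Nr4a1 fell by 3.04 and 2.13 and Ier3 by 1.88, and among chaperones Hspa1a fell by 1.92 (adjusted p = 0.0063) and Hsph1 by 1.53. Of the 14 targets of ATF4, the factor of amino acid shortage, 10 fell and 1 rose (median -0.37), with the cystine transporter gene Slc7a11 at 10.29 to 11.10 at day 2 and 7.19 to 8.04 at day 4 (-3.10 ± 0.40). Antioxidant genes gave 3 rises and 5 falls of 10 (median -0.17), in which Sod2 fell by 1.32 and Txnrd1 by 1.26 while catalase (Cat) rose by 1.11.

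Of 20 genes of glycolysis and hypoxia, 14 fell and 0 rose (median -0.82). Slc2a1, the glucose transporter GLUT1, read 11.63, 11.70, 11.91, 11.79 and 12.29 at day 2 and 9.76, 9.89, 10.15 and 9.68 at day 4 (-1.99). Slc16a3, which exports lactate, fell by 2.09 ± 0.21 and Ero1a, an oxidase of protein folding, by 2.30 ± 0.29. These genes were highest in replicate 5 of day 2. Enzymes of fatty acid oxidation moved the other way, with 11 of 17 up and 1 down (median 0.44), led by Hadh, a dehydrogenase of mitochondrial β-oxidation, at 8.93 to 9.45 at day 2 and 10.68 to 10.75 at day 4 (1.44 ± 0.10). Against the Ly6C- arrays 0 of these 17 genes were higher and 2 lower (median -0.12). Genes of oxidative phosphorylation and the TCA cycle gave 5 rises and 3 falls of 20 (median 0.10), and 3 of each without KO day 4 replicate 4.

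Lipid genes split by pathway. Among 17 genes of cholesterol synthesis, 12 fell and 2 rose (median -0.61). Idi1, an early enzyme of the pathway, fell by 1.70 ± 0.24, the sterol sensor gene Insig1 by 1.66 ± 0.13 and Sqle, which oxidises squalene, by 1.64 ± 0.20. Targets of LXR, the receptor for oxidised sterols, rose in 9 of 11 cases with 0 falls (median 0.77). Abcg1, which exports cholesterol, read 9.39, 9.41, 9.24, 9.36 and 8.86 at day 2 and 11.37, 11.56, 11.22 and 11.42 at day 4 (2.14), and Pltp, the phospholipid transfer protein gene, rose by 2.37 ± 0.17. For both lists the day 4 arrays were also on the same side of the Ly6C- arrays, with 7 of 17 lower and 0 higher for cholesterol synthesis and 7 of 11 higher and 0 lower for LXR targets.

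Genes tied to PPARγ showed no common direction. In the PPAR and lipid handling list 5 of 13 rose and 5 fell (median -0.16). Angptl4, a lipase inhibitor and PPAR target, read 6.72, 6.86, 6.88, 6.79 and 6.80 at day 2 and 7.55, 7.77, 7.96 and 8.36 at day 4 (1.10, adjusted p = 6.0e-06). Lpl, lipoprotein lipase, rose by 2.11 and Cd36, a fatty acid and scavenger receptor, from 10.55 to 11.26 at day 2 to 11.39 to 11.69 at day 4 (0.70, adjusted p = 1.3e-04). Gpat3, an enzyme of triglyceride synthesis, fell by 2.35, Plin2, the coat protein of lipid droplets, by 0.36, and Fabp4, a fatty acid carrier and a classical PPARγ target, by 0.45 (adjusted p = 0.035). Fabp4 read 9.53, 9.32, 9.02, 9.18 and 8.73 at day 2 and 8.62, 8.71, 8.66 and 8.83 at day 4, the groups overlapped, and its call was lost without any of KO day 4 replicates 1, 2 and 3 or KO day 2 replicates 1, 2 and 4, with adjusted p up to 0.11. Its difference from the Ly6C- arrays was -1.70 (adjusted p = 3.5e-10).

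Gdf3, the TGF-β family ligand named in the title of the series, read 7.41, 7.38, 7.24, 7.32 and 7.24 at day 2 and 8.06, 7.98, 7.45 and 7.51 at day 4. All day 4 arrays were above all day 2 arrays, by 0.43 ± 0.13 (adjusted p = 0.005), though with quantile normalization the difference was 0.29 and was not called (adjusted p = 0.06). Among the nuclear receptor genes themselves 4 of 8 rose and 1 fell (median 0.12), with Rxra, the partner of PPARγ, at 8.51 to 8.90 at day 2 and 9.75 to 9.83 at day 4 (1.03 ± 0.10) and Ppard at -0.34. Growth and repair factors gave 9 rises and 5 falls of 16 (median 0.34). Beside Igf1 and Vegfa, the platelet-derived growth factor gene Pdgfc rose by 2.65 ± 0.12, and Inhba, the subunit of activin A, fell by 2.76 ± 0.41. In the list of TGF-β and activin signalling 8 of 13 fell and 2 rose (median -0.54), in which the response gene Id3 fell by 2.04 and the receptor gene Tgfbr1 rose by 1.54.

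Genes for the removal of dying cells and of complement C1q rose in 12 of 15 cases with 0 falls (median 0.94). Mfge8, a bridge between MFs and dying cells, read 7.80, 7.88, 7.54, 7.49 and 7.57 at day 2 and 10.50, 9.98, 10.65 and 10.41 at day 4 (2.73 ± 0.13), and Gas6, the ligand of Axl and Mertk, rose by 2.54 ± 0.14. C1qa, a chain of C1q, rose by 2.26 ± 0.21. Lysosomal genes rose in 18 of 24 cases with 1 fall (median 0.38), and their mean level was 10.92 to 11.11 at day 2 and 11.54 to 11.62 at day 4, where the Ly6C- arrays read 11.54 to 11.60. Hexa, a subunit of hexosaminidase, rose by 0.93 and Acp5, tartrate-resistant acid phosphatase, by 1.35 ± 0.08. Iron and heme genes rose in 8 of 14 cases with 2 falls (median 0.50), led by Slc40a1, the iron exporter ferroportin, at 6.40, 6.26, 6.49, 6.12 and 6.16 at day 2 and 9.10, 8.93, 8.92 and 8.78 at day 4 (2.65 ± 0.15), with the ferroxidase gene Cp at 1.98.

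The remaining function lists held members of both directions. Alternative activation gave 3 rises and 7 falls of 15 (median -0.12; 1 and 6 of 9 and -0.99 with dim genes left out), in which the chitinase-like gene Chil3 fell by 2.82 ± 0.22, Il10 by 2.31 and Il1rn, the interleukin-1 receptor antagonist, by 1.73. Matrix remodelling gave 4 and 7 of 13 (median -0.61), with the protease inhibitor gene Timp1 falling from 10.38 to 11.02 at day 2 to 7.84 to 8.38 at day 4 (-2.66 ± 0.15), while its relative Timp2 rose by 2.03 ± 0.11 and the elastase gene Mmp12 by 1.96. Integrins gave 7 and 5 of 13 (median 0.28), among which Itga9 rose by 2.62, and the Fcγ receptor list 3 and 1 of 6 (median 0.24), with Fcgr4 up by 0.65. Of 17 myeloid transcription factors, 4 rose and 8 fell (median -0.24). Cebpb, a factor of inflammatory gene expression, fell by 2.16 ± 0.23 and Klf4, a factor of monocyte differentiation, by 1.68 ± 0.16, and Irf8, a factor of monocyte and dendritic cell identity, rose by 1.23 ± 0.13.

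**Figure D3:**
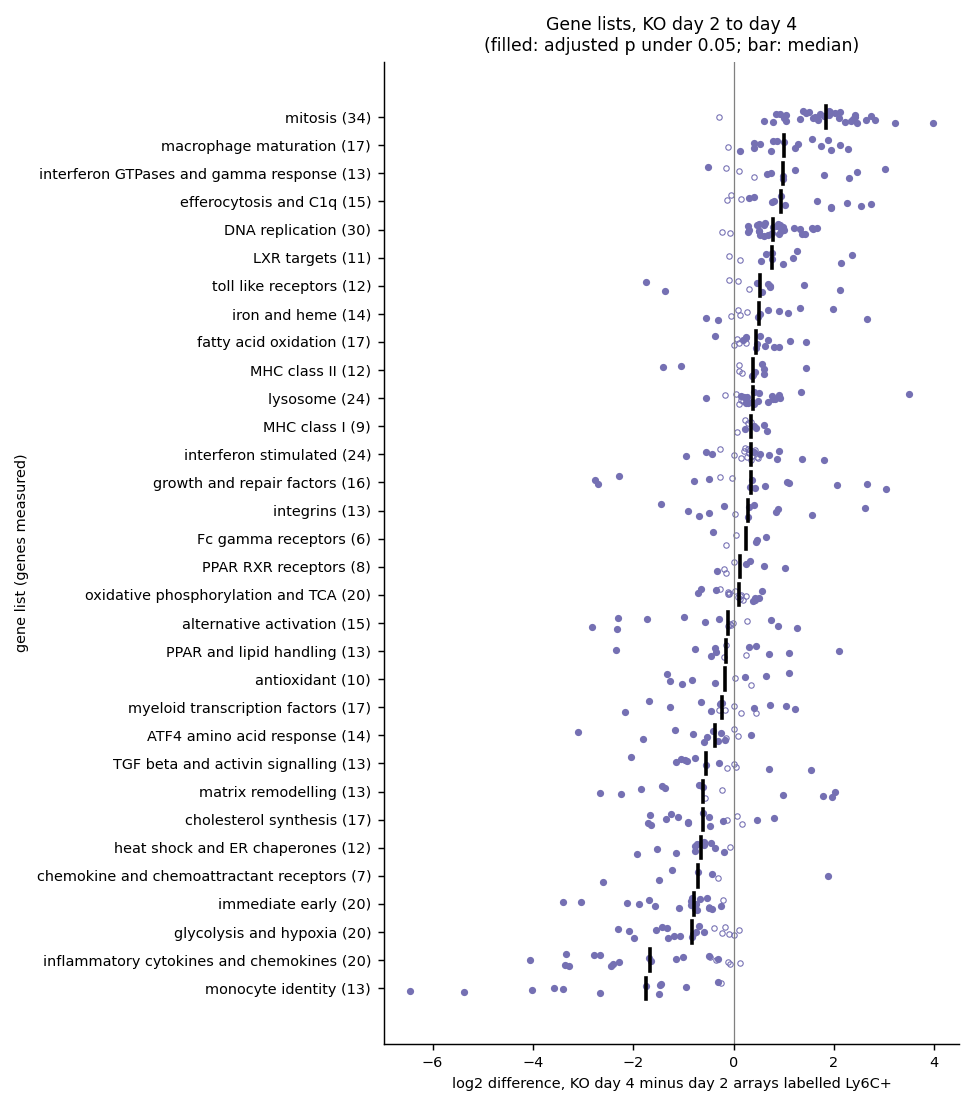
Day 4 minus day 2 difference in KO MFs (log2, horizontal axis) for each measured member of the 32 lists of function (rows), with filled points for genes called at adjusted p below 0.05, open points for the others and a bar at the list median. Members lie nearly all to the right for mitosis (33 of 34 called up) and nearly all to the left for immediate early genes (18 of 20 called down), while PPAR and lipid handling spreads to both sides.

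Cell division genes rose together. Of 34 genes of mitosis, 33 rose and 0 fell (median 1.85), and of 30 genes of DNA replication, 28 rose and 0 fell (median 0.78), where 22.3% of all genes rose. Between day 1 and day 2 in the KO, 0 of the 34 mitosis genes were called in either direction. The mean level of the mitosis genes was 6.21 to 6.27 at day 2 and 8.23, 7.28, 8.23 and 8.48 at day 4, and in Ly6C- arrays it was 6.68 to 6.97. The DNA replication genes stood at 7.0 to 7.16 at day 2, at 8.03, 7.64, 7.90 and 7.98 at day 4 and at 7.80 to 8.01 in Ly6C- arrays. Day 4 replicate 2 was lowest for both lists, and without it 33 mitosis genes still rose, with a median of 2.13.

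The lists parted in the comparison with the Ly6C- subset. All 34 mitosis genes were higher at day 4 than in the Ly6C- arrays (median 1.13), whereas of the 30 DNA replication genes 3 were higher and 6 lower (median -0.02). Plk1, a kinase that drives entry into mitosis, read 6.52, 6.59, 6.75, 6.59 and 6.40 at day 2 and 9.70, 8.22, 9.76 and 9.84 at day 4 (2.81), with a Ly6C- mean of 7.29. Mcm7, a subunit of the replicative helicase, read 6.91, 6.82, 6.88, 6.73 and 6.78 at day 2 and 8.69, 7.87, 8.24 and 8.16 at day 4 (1.42), with a Ly6C- mean of 8.02 (day 4 against Ly6C-, 0.22, adjusted p = 0.39). Rrm1, a subunit of the reductase that makes deoxynucleotides, read 7.43 to 7.87 at day 2 and 8.89 to 9.78 at day 4 (1.66). Day 4 arrays thus lay on both sides of the Ly6C- mean for Mcm7, and all of them above it for Plk1.

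Promoters of the mitosis genes are shown because the members rose together. RefSeq gives 30 promoter windows (250 bases before to 50 after the start, build GRCm38.p6) for 28 of the 34 genes. A pair of motifs was searched on both strands: CCAAT, the box bound by NF-Y, and TTTGAA, the core of the cell cycle homology region. CCAAT was in 23 windows (76.7%; 37.4% of all 32851 windows), TTTGAA in 24 (80%; 17.9% of all) and both in 21 (70%; 6.95% of all). In 30 windows of DNA replication genes they were in 17 (56.7%), 3 (10%) and 2 (6.67%). For display a chromosome was left out and only the first window of each gene by position was ranked. The 3 genes with the largest rises whose ranked window holds both motifs were Ccnb2 (3.22), Plk1 (2.81) and Kif11, the gene of a spindle motor (2.63). Each is written 5′ to 3′ in the direction of its gene, with both motifs in capitals on whichever strand they were found, and a match describes letters, not binding.
Ccnb2 (chr9:70421505-70421804, minus strand): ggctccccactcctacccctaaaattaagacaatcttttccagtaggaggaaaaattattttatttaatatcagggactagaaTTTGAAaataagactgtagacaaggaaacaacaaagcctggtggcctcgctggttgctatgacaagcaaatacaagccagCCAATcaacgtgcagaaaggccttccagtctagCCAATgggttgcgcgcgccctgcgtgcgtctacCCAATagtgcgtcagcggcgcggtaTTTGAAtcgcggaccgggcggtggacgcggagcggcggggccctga
Plk1 (chr7:122159185-122159484, plus strand): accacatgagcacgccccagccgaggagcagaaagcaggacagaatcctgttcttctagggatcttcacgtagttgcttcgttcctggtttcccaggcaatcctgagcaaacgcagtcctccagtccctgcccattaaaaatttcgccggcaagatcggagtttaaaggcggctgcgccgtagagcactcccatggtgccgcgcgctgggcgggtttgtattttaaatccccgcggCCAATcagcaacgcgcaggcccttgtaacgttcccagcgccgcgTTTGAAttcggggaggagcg
Kif11 (chr19:37376132-37376431, plus strand): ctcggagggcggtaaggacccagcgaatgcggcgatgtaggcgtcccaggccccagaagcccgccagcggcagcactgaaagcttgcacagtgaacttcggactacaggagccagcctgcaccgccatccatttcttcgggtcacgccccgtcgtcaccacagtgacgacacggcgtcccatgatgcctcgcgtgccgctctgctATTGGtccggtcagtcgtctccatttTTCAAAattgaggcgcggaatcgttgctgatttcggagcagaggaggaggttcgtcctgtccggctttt

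Counted from the start site, Ccnb2 holds CCAAT from positions -87, -54 and -21 and TTTGAA from -167 and 5, Plk1 holds CCAAT from -14 and TTTGAA from 31, and Kif11 holds both on the minus strand, from -45 and -19.

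Interferon-related genes were read in 2 lists. Of 24 interferon-stimulated genes, 7 rose and 3 fell between day 2 and day 4 (median 0.34), against 22.3% and 22.5% of all genes, but 23 were higher at day 4 than in KO Ly6C- arrays and 0 lower (median 1.13). Ifit2, an antiviral RNA-binding protein gene, read 8.98, 8.72, 8.36, 8.76 and 8.41 at day 2 and 10.55, 10.29, 10.32 and 10.60 at day 4 (1.80), and Ly6C- arrays had a mean of 7.82. Ifit3 rose by 1.36 ± 0.40 (adjusted p = 0.0048) and Bst2, the tetherin gene, by 0.90 ± 0.15, while Oasl1, a regulator of interferon production, fell by 0.95 ± 0.17. The count was 14 rises and 3 falls when only the compared arrays were fitted and 13 and 4 with a replicate block. It also moved with single arrays, to 10 rises and 2 falls without KO day 2 replicate 1, 4 rises and 2 falls without KO day 2 replicate 5, 4 and 3 without KO day 4 replicate 4, and 5 and 2 without KO day 4 replicate 2. In the WT, with all its arrays, 18 of the 24 rose and 0 fell (median 0.78). The KO change minus the WT change had a list median of -0.43, and this difference was called for 0 of the 24.

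Interferon GTPases and other genes of the interferon γ response rose in 9 of 13 cases with 1 fall (median 0.98), and 11 were above the Ly6C- arrays with 0 below (median 1.58). Iigp1, a GTPase that attacks the vacuoles of parasites, read 4.82, 4.66, 5.08, 4.72 and 4.77 at day 2 and 7.45, 6.97, 7.05 and 7.62 at day 4 (2.46 ± 0.16), and Gbp4 rose by 2.31 ± 0.18. Of 12 genes of MHC class II presentation 7 rose and 2 fell (median 0.38), and 8 were above Ly6C- with 0 below (median 1.11). Ciita, the master activator of class II genes, read 7.61, 7.26, 7.64, 7.61 and 7.31 at day 2 and 8.94, 8.92, 9.06 and 8.81 at day 4 (1.45; Ly6C- mean 6.44), and the falls were in the co-stimulatory genes Cd86 (-1.41) and Cd80 (-1.05). Without KO day 4 replicate 2 the class II count was 4 rises and 2 falls. Class I genes rose in 5 of 9 cases with 0 falls (median 0.35), 3 with quantile normalization, with the peptide transporter gene Tap1 at 0.67.

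Windows of the interferon-stimulated genes are shown too, although these genes did not rise together (7 of 24 rose and 3 fell). In capitals is the core of the interferon-stimulated response element, GAAANN followed directly by GAAA, on either strand. It was in 9 of 19 windows of 17 genes (47.4%; 3.44% of all). Ifit3 and Bst2 had the largest rises among list genes whose ranked window holds it, and the matches of Bst2 overlap each other.
Ifit3 (chr19:34583279-34583578, plus strand): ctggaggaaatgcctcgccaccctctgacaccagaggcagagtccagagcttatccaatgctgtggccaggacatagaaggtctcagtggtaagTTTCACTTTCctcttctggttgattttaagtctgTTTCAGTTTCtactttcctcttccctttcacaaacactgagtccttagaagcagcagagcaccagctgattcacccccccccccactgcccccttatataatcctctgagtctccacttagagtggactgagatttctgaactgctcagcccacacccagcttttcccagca
Bst2 (chr8:71537423-71537722, minus strand): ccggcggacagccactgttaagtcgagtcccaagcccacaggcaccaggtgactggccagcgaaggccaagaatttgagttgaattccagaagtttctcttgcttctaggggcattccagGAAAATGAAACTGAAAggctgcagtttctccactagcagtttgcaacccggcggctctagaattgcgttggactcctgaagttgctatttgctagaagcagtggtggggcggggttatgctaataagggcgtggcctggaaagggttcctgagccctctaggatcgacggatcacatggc

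Lysosomal genes were searched for CACGTG, a palindrome within the motif of the factor TFEB, which was in 8 of 26 windows of 20 genes (30.8%; 7.15% of all) and in 4 of 30 windows of DNA replication genes (13.3%). Gaa, acid α-glucosidase (0.83), and Mcoln1, a calcium channel of the lysosome (0.50), had the largest rises among those whose ranked window holds it. CACGTG is in capitals.
Gaa (chr11:119267713-119268012, plus strand): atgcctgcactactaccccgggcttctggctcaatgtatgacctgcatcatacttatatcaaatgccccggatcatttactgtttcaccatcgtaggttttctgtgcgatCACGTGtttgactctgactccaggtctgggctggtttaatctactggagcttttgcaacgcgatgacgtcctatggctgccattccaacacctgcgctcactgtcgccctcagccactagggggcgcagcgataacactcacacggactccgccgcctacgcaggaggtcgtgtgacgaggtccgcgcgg
Mcoln1 (chr8:3500269-3500568, plus strand): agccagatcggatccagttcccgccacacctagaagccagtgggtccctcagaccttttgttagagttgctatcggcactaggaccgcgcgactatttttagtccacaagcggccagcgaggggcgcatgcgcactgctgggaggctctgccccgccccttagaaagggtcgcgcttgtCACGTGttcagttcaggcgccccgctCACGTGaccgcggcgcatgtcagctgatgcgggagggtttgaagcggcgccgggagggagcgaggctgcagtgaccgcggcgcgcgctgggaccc

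**Figure D4:**
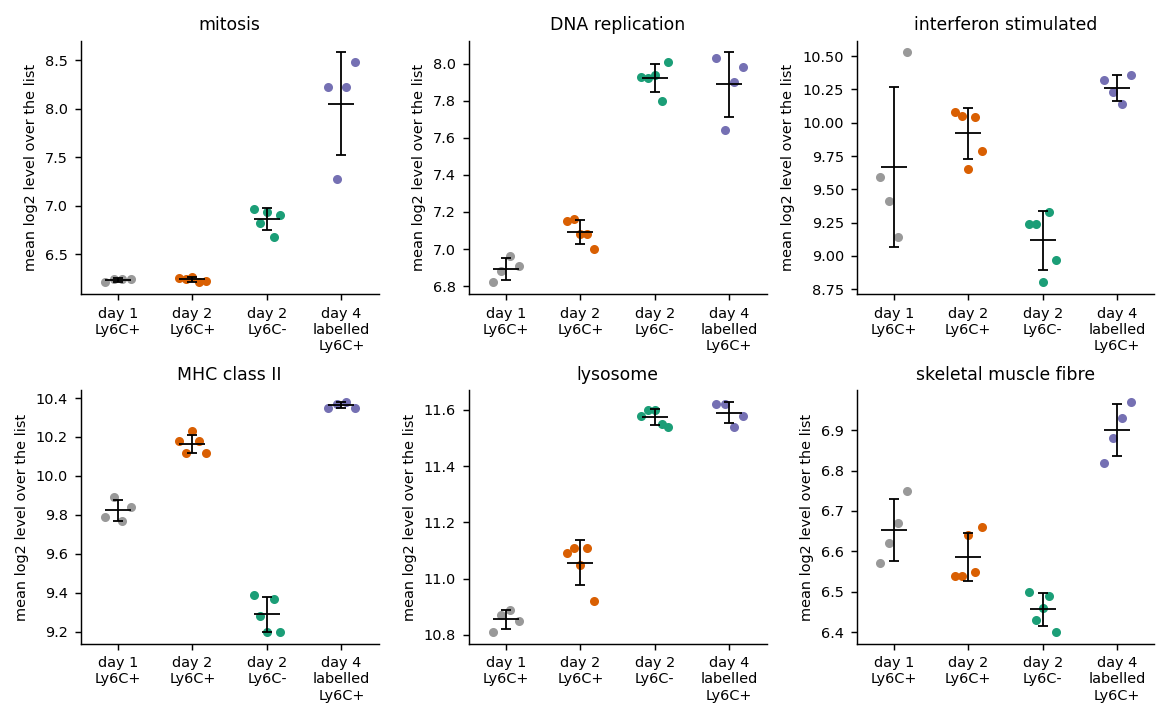
Mean log2 level over the measured members of 6 lists (panels) in each array, with points for arrays of KO day 1 Ly6C+, day 2 Ly6C+, day 2 Ly6C- and day 4 labelled Ly6C+, and bars for the group mean ± SD. Day 4 lies above every other KO group for mitosis, where replicate 2 is the lowest day 4 point at 7.28, overlaps the Ly6C- arrays for DNA replication and lysosome, and lies above the Ly6C- arrays for interferon-stimulated and MHC class II genes and for skeletal muscle fibre genes.

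Lists of markers of other cells moved unevenly, where 22.3% of all genes rose and 22.5% fell. Of 15 skeletal muscle fibre genes 9 rose and 2 fell (median 0.26), and 11 were above the Ly6C- arrays with 1 below. Their mean level was 6.57 to 6.75 at KO day 1, 6.54 to 6.66 at day 2, 6.40 to 6.50 in Ly6C- arrays and 6.82 to 6.97 at day 4. Acta1, skeletal muscle actin, read 7.64 to 7.85 at day 2 and 8.55, 8.91, 8.56 and 8.86 at day 4 (1.01), and Des, the intermediate filament desmin, which the myoblast list shares, rose by 1.43. Of 8 myoblast genes 3 rose and 0 fell (median -0.02, and 0.06 with quantile normalization; mean level 6.23 to 6.38 at day 2 and 6.47 to 6.60 at day 4). Of 10 fibroblast genes 4 rose and 0 fell (median 0.18), and their mean level went from 6.15 to 6.35 at day 2 to 6.64 to 6.83 at day 4, with the matrix gene Postn at 4.67 to 4.77 at day 2 and 6.65 to 6.96 at day 4 (2.04) and Dcn up by 1.28. The part of these cells' RNA in the rises of Myl1 and of matrix genes was not tested.

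Of 15 neutrophil genes 10 fell and 1 rose (median -0.27; 5 and 1 of 6 and -1.81 with dim genes left out), and their mean level went from 7.12 to 7.42 at day 2 to 6.35 to 6.46 at day 4, against 6.58 to 6.65 in Ly6C- arrays. Lcn2, lipocalin-2, read 8.84, 9.14, 8.86, 9.25 and 9.82 at day 2 and 6.14, 6.60, 6.37 and 6.19 at day 4 (-2.86), and Il1r2 and Cd177 fell by 2.71 and 2.53. The part of neutrophil RNA in the falls of inflammatory genes was not tested. Among 10 dendritic cell genes 5 rose and 1 fell (median 0.37, mean level 6.58 to 6.71 at day 2 and 6.82 to 7.10 at day 4). Of 11 T and NK cell genes 1 rose, Cd4, which MFs also express, at 6.24 to 6.46 at day 2 and 8.28 to 9.04 at day 4 (2.30), and 0 fell (list median -0.02). Their mean level was 5.49 to 5.74 at day 2 and 5.73 to 5.84 at day 4.

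B cell genes gave 2 rises and 2 falls of 6 (median -0.08; mean level 5.82 to 5.95 at day 2 and 5.91 to 6.12 at day 4). Eosinophil and mast cell genes gave 1 and 1 of 9 (median -0.02; 5.40 to 5.56 and 5.39 to 5.51). With quantile normalization the medians of the T and NK, B and eosinophil and mast cell lists were 0.08, 0.00 and 0.05. Endothelial genes gave 0 rises and 2 falls of 8 (median -0.19; 6.48 to 6.62 and 6.26 to 6.42), and 1 fall when any of KO day 2 replicates 1 and 2 or KO day 4 replicates 1 and 4 was left out. Erythroid genes gave 0 and 1 of 4 (median -0.06; 6.33 to 6.48 and 6.25 to 6.38).

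Whether the change between the days differed by genotype was tested directly. In the WT, which shares no array with the KO, 9921 genes were called (49.8%), 4739 up (23.8%) and 5182 down (26%), with a median of -0.09. Of these and the KO calls, 6836 moved in the same direction in both, which is 76.5% of the KO calls and 68.9% of the WT calls, and 4 were called in opposite directions. Across the 19938 genes, which are not independent replicates, the differences of the genotypes correlated with Pearson r = 0.939 and Spearman rho = 0.817. Of 1238 genes that changed by at least 1 in the KO, 1232 were called in the WT in the same direction. All 15 largest rises rose in the WT and all 15 largest falls fell there. With WT day 2 arrays 4 to 6 alone, an alternative chosen after seeing the data, 7550 genes were called in the WT. Of these 5749 moved in the same direction in the KO (64.3% of the KO calls and 76.1% of the WT calls) and 5 in the opposite one, with r = 0.923 and rho = 0.786 across genes, and all 30 leading genes kept their direction and call.

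The difference between the genotypes was called for 6 genes (0.0301%), with 1686 below 0.05 before adjustment. Siglech, a sialic acid receptor of plasmacytoid dendritic cells and some MFs, read 6.29, 6.42, 6.48, 6.57 and 6.41 at KO day 2 and 6.48, 6.96, 7.79 and 7.31 at KO day 4 (0.70, adjusted p = 5.5e-05), while the WT differed by -0.25 (adjusted p = 0.11), an interaction of 0.96 ± 0.19 (SE; adjusted p = 0.048). KO replicate 1 at day 4 lay within the day 2 range. Cav1, the caveolin that coats membrane pits, read 7.18, 7.33, 7.27, 7.32 and 7.76 at KO day 2 and 7.85, 7.13, 8.15 and 7.65 at KO day 4, and 8.62, 8.56, 8.29, 7.46, 7.94 and 8.20 at WT day 2 and 7.52, 7.23, 7.14 and 7.07 at WT day 4. The KO difference of 0.33 was not called (adjusted p = 0.14), the WT fell by 0.94, and the interaction was 1.26 ± 0.26 (adjusted p = 0.048). For both genes the WT day 2 arrays 1 to 3 held the higher WT levels, and with WT day 2 arrays 4 to 6 alone the interactions were 0.72 (adjusted p = 0.14) for Siglech and 0.95 (adjusted p = 0.15) for Cav1. The mean level of the 8 endothelial genes was 7.17, 7.09 and 7.01 in WT day 2 arrays 1 to 3. It was 6.41, 6.75 and 6.86 in WT day 2 arrays 4 to 6, and 6.48 to 6.62 at KO day 2. From day 2 to day 4, 7 of these 8 genes fell in the WT and 0 rose. The part of endothelial RNA in the Cav1 difference was not tested.

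Acp5 read 10.19, 10.11, 10.35, 10.21 and 9.96 at KO day 2 and 11.61, 11.50, 11.40 and 11.56 at KO day 4. In the WT it read 9.53, 9.47, 9.76, 9.25, 9.36 and 9.68 at day 2 and 11.51, 11.49, 11.38 and 11.45 at day 4, so the genotypes met at day 4 after different day 2 levels. The rise was 1.35 in the KO and 1.95 in the WT (interaction -0.60 ± 0.11, adjusted p = 0.039). Fam234b rose by 0.81 in the WT and differed by 0.16 in the KO (adjusted p = 0.15; interaction -0.66 ± 0.12), Lrrc39, a leucine-rich repeat gene, rose by 0.64 in the WT and differed by 0.15 in the KO (adjusted p = 0.081; interaction -0.49 ± 0.10), and the antisense gene Bach2os rose by 0.93 in the KO and 1.65 in the WT (interaction -0.73 ± 0.14). Each of these had adjusted p = 0.039. None of the 30 leading genes was among the 6, and Gdf3, which rose by 1.10 in the WT, had an interaction of -0.67 ± 0.17 (adjusted p = 0.18).

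The 6 calls depended on the arrays used. With WT day 2 arrays 1 to 3 alone on the WT side 402 genes were called, and with arrays 4 to 6 alone 6 were, of which 2 were among the 6 genes called with all arrays. These were Acp5 (-0.67, adjusted p = 0.01) and Fam234b (-0.73, adjusted p = 0.017), while Bach2os (-0.71, adjusted p = 0.073) and Lrrc39 (-0.50, adjusted p = 0.067) lost the call along with Siglech and Cav1. Of the 7 genes called with a replicate block 1, Bach2os, was among the 6. Leaving out single arrays gave from 0 to 36 calls, 0 without KO day 2 replicate 1, 2 or 3, KO day 4 replicate 3 or 4, or WT day 4 replicate 1, 2 or 3, and 36 without WT day 2 replicate 4. In those settings with 0 calls, 1359 to 1632 genes were below 0.05 before adjustment. The next 4 genes by p were not called: Tiam1 (0.55, adjusted p = 0.065), Ndnf (0.70, adjusted p = 0.065), Zfp54 (0.65, adjusted p = 0.082) and Acp2 (-0.49, adjusted p = 0.085).

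**Figure D5:**
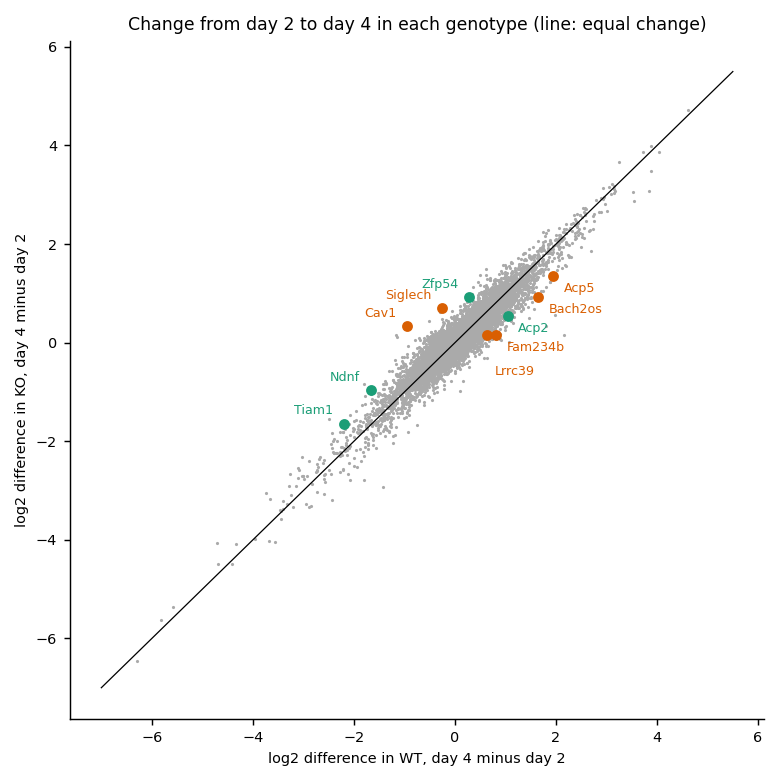
Day 4 minus day 2 difference of each gene in the WT (horizontal axis, log2) and in the KO (vertical axis, log2), with a line of equal change, the 6 genes called for a difference between genotypes in orange and the next 4 in green. The points follow the line (Pearson r = 0.939 across 19938 genes), and the coloured genes lie off it, with none of the 6 among the 30 leading genes.

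The step from day 1 to day 2 shares the day 2 arrays and is set beside the later one. Between day 1 and day 2 in the KO, 1723 genes were called (8.64%), 1209 up (6.06%) and 514 down (2.58%). Pparg itself rose in that interval, by 1.08 (adjusted p = 1.0e-06) from a mean of 9.31. Of the 15 largest rises of the later interval 4 had already risen and of the 15 largest falls 5 had already fallen. Among MF maturation genes 10 of 17 rose from day 1 to day 2 and 16 from day 2 to day 4, with Fcrls up by 1.94 and then 2.29, whereas Mertk differed by 0.06 (adjusted p = 0.83) and then rose by 1.95. Interferon-stimulated genes had 0 calls of 24 in the earlier interval, in which day 1 arrays ranged from 9.14 to 10.53 in their mean level.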

How the data were processed

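RNA was amplified with the Ambion WT kit and hybridised to Affymetrix mouse gene arrays. The authors deposited log2 values made with RMA per the submitters' processing notes (background correction, quantile normalization and summary by probe set); the software behind RMA is not given in the sources used. Of 35556 probe sets, 21789 carried 1 symbol, and the brightest per gene gave 19938 genes. Groups followed the labels of all 44 arrays. Group means were fitted with limma 3.58.1 (R 4.3.3; 10 groups, 34 residual and 6.46 prior degrees of freedom), called at adjusted p below 0.05, two-sided, and tested on simulated data. Probe sets of several genes (Ly6c1 and Ly6c2) entered no gene test, Gdf15 was not analysed here, and the number of arrays limits precision.

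The comparison, its lists (42, with 48 of 643 entries not measured) and the tests were chosen with earlier results of these data known. Named were the 15 largest rises and falls without overlap between days, the 8 furthest genes each way from Ly6C-, genotype differences called and the next 4, up to 4 called members per list, and genes read always (Pparg, Lyz2, Gdf3, Fabp4, Cd36, Angptl4, Plin2, Adgre1, Cx3cr1, Ccr2 and Igf1 among them); predicted symbols were left unnamed. Promoter genes were chosen by their rise and motif, and Csf1r, Cd68, Itgam and Fcgr1 as general MF markers. Same-numbered Ly6C+ arrays of the 2 days correlated from -0.15 to 0.151 in the KO and from -0.0851 to 0.182 in the WT. In each genotype 1 of 4 pairs was above 0.1, and 0 in the KO and 2 in the WT correlated best with their own number. They were not taken as pairs, and numbers were not checked between genotypes. Alternatives were other normalization, filters, probe summary, moderation, arrays in the fit, a fold minimum, a replicate block, leaving out arrays and, chosen after seeing the data, the overlap with the WT on WT day 2 arrays 4 to 6.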

Additional observations from a re-analysis of the deposited data

Results flagged for a closer look

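An array far from the others of its group was found in 6 of 88 groups tested, and chance flags about 1 in 20. These were Gpr34 in KO day 2 replicate 1 (5.24, others 4.83 to 4.95), Ifitm6 in KO day 2 replicate 3 (11.52, others 11.66 to 11.70), Lyz1 in KO day 2 replicate 4 (12.09, others 12.39 to 12.48) and the shared Ly6c probe set 10429568 in KO day 2 replicate 3 (11.83, others 12.04 to 12.08). At KO day 4 they were Cd72 in replicate 2 (12.09, others 11.68 to 11.74) and Cxcl9 in replicate 4 (9.48, others 10.61 to 10.80).

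The day 4 minus day 2 change differed between KO and WT by limma's interaction test for 6 genes. KO minus WT change was -0.73 for Bach2os, -0.66 for Fam234b, -0.60 for Acp5 and -0.49 for Lrrc39, each with adjusted p = 0.039, and 0.96 for Siglech and 1.26 for Cav1, with adjusted p = 0.048.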

How the results depend on the processing

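The 8937 calls between day 4 and day 2 ranged from 7277 to 8930 when single arrays were left out. They were 9820 with median centring (43.6% higher against 49.8%), 8533 with quantile normalization, 6098 without dim genes, 9943 with the compared arrays alone and 3107 with a fold of at least 1.5 (66.5% higher). Calls against the Ly6C- arrays were 1710 with that fold and 4267 to 4754 with single arrays left out. The 6 genotype differences became 402 with WT day 2 arrays 1 to 3 alone, 10 with quantile normalization, 0 with the compared arrays alone (1525 below 0.05 before adjustment) and 0 to 36 with single arrays left out, among them 1 without WT day 2 replicate 2 or WT day 4 replicate 4, 2 without KO day 2 replicate 4 and 11 without WT day 2 replicate 6. With a replicate block calls were 8550, 7 and 5129, and Pparg passed (-0.24, adjusted p = 0.036). The check of the pairing gave no ground for that block within the KO, and it did not look between genotypes. Counting for each gene the other settings and the lowest and highest value with 1 array left out, 362 of 365 values for 41 genes named in the main comparison kept direction and call, 2 lost the call (Gdf3 and Fabp4) and 0 reversed. Of 106 such values for 10 genes of the genotype difference, 23 lost and 12 gained the call and 0 reversed. Over every fit with 1 array left out, the 41 genes lost the call in 6 of 369 values, all of Fabp4, and the 6 genotype differences in 72 of 114, from 11 of 19 for Acp5, Bach2os, Fam234b and Lrrc39 to 14 of 19 for Cav1 and Siglech. The next 4 genes gained it in 9 of 76. The mean position of the day 4 arrays, 0.99, ranged from 0.95 to 1.01 with single arrays left out. Why counts moved was not tested. Dim probe sets have little signal over background, and day and sort subset cannot be told apart.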
